A study of Populus qamdoensis and Populus schneideri with 18 samples.

Results

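Sucrose leaves the photosynthesising leaf cell as the main transport sugar of poplar, and a plant can cleave it in 2 ways. Sucrose synthase splits sucrose with UDP, reversibly, into fructose and UDP-glucose, a precursor of cellulose and other wall polysaccharides. Invertase (beta-fructofuranosidase) hydrolyses sucrose irreversibly into glucose and fructose. The insoluble form is bound to the cell wall and acts on sucrose outside the cell, while the soluble acid form acts in the vacuole. Described here are 4 genes of the 39194 in the deposited table: sucrose synthase 2 (SUS2, Pyun06G012700), sucrose synthase 1 (SUS1, Pyun18G005620), sucrose synthase 6 (SUS6, Pyun04G007170) and an insoluble beta-fructofuranosidase, called the insoluble invertase below (Pyun06G019190). The names come from the starch and sucrose section of the study's list of differentially expressed genes in *P. qamdoensis*, so film differences in that species chose these genes and are described without a test. Numbers in the names follow matches to genes of other poplars.

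RNA was taken from leaves of cuttings of 2 poplars, *P. qamdoensis* and *P. schneideri*, each with 3 libraries under a translucent colorless film (WF), 3 under a blue film (BF) and 3 under a green film (GF), 18 in all. The *P. qamdoensis* plants were propagated asexually from trees of a natural forest, and 3 plants were sampled per film. For *P. schneideri* the labels give only white, blue or green light quality, from which the film was inferred, and nothing states that its replicates were separate plants, so p-values there measure the spread between these samples only. Neither species was transformed or otherwise treated as far as the labels say, and the line of each library is given only by a library code. Expression is given in FPKM, fragments relative to gene length and to library size, which allows levels of different genes to be compared. Both species were mapped to the genome of another poplar, *P. yunnanensis*. The fragments behind each value are not known, so no counting error can be given for the low values. The treatment of reads that match several similar genes is not given in the sources used here, which leaves some uncertainty in the values of each sucrose synthase. As a check of tissue, the leaf genes protochlorophyllide reductase and 3 antenna protein genes were present in all 18 libraries, at 8.24 to 43.8 FPKM and 47.4 to 547 FPKM. One library stood apart: *P. qamdoensis* BF replicate 1 had a median Pearson's r of 0.861 with the other libraries of its species across genes, against 0.940 to 0.979 for the others.

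SUS6 was the sucrose synthase of highest mean FPKM in *P. qamdoensis*, and SUS2 that of *P. schneideri* in most libraries. Film-averaged, SUS6 and the insoluble invertase were higher in *P. qamdoensis* than in *P. schneideri*, by 5.31 times and 2.57 times as ratios of mean FPKM. In *P. schneideri*, 0 of the 3 members tested was called between films, and the insoluble invertase came nearest, at 8.15 ± 3.95 FPKM under BF, 5.43 ± 2.95 under GF and 2.58 ± 0.375 under WF (mean ± SD, n = 3). SUS1 was under 0.5 FPKM in all 9 libraries of *P. schneideri* and in all but 2 of *P. qamdoensis*. In whole leaves, fewer cells of a type and less RNA per cell cannot be told apart.

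**Figure D1:**
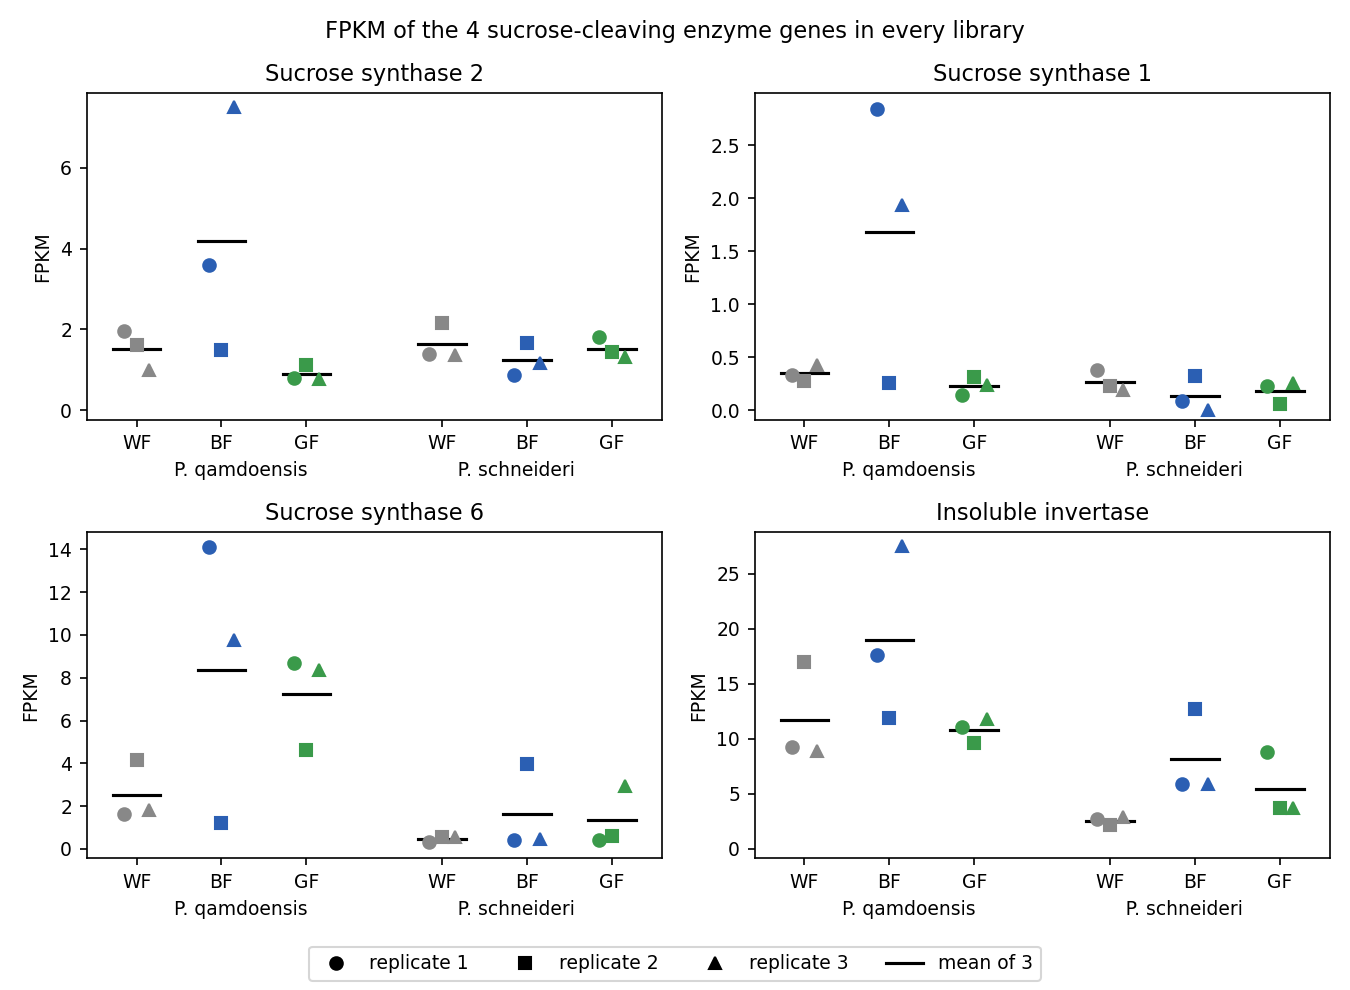
FPKM of the 4 genes (y axis of each panel, in FPKM, starting at 0) by film and species (x axis). Symbols mark replicates 1 to 3 and the horizontal bar is the mean of a group. SUS6 and the insoluble invertase lie lower in *P. schneideri*, and under BF in *P. qamdoensis* replicate 2 lies below replicates 1 and 3 for every gene.

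SUS2 showed its highest levels in *P. qamdoensis* under BF. FPKM was 3.59, 1.497 and 7.50 in BF replicates 1, 2 and 3. Under GF the values were 0.793, 1.11 and 0.774, and under WF they were 1.97, 1.61 and 0.985. BF replicates 1 and 3 were above every other *P. qamdoensis* library, and replicate 2 fell inside the range of WF. All 3 BF libraries were above all 3 GF libraries, a pattern held by 10% of the genes tested in that species, from which nothing is read because these contrasts chose the gene. In *P. schneideri* the film means were close together. FPKM was 0.860, 1.66 and 1.18 under BF, 1.81, 1.44 and 1.31 under GF, and 1.39, 2.16 and 1.37 under WF. The 3 films overlapped there, and BF had the lowest mean, not the highest.

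SUS1 was the lowest of the 3 sucrose synthases in mean FPKM in all 6 groups. In *P. qamdoensis* under BF its values were 2.84, 0.255 and 1.93. Under GF they were 0.145, 0.313 and 0.236, and under WF 0.334, 0.279 and 0.427. Only BF replicates 1 and 3 exceeded the filter of 0.5 FPKM, and through them the gene passed as a mean over the 9 libraries of its species (0.752). In *P. schneideri* the values were 0.0904, 0.322 and, listed at 0, 0 under BF, 0.228, 0.0599 and 0.260 under GF, and 0.375, 0.226 and 0.186 under WF. The 3 films overlapped, the mean over the 9 libraries was 0.194, and the gene was therefore not tested by limma in that species or between species.

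In *P. qamdoensis* the FPKM of SUS6 was 14.1, 1.22 and 9.78 under BF. Under GF the values were 8.69, 4.64 and 8.37, and under WF 1.61, 4.16 and 1.83. The BF group held both the highest and the lowest library of the species, while all 3 GF libraries exceeded all 3 WF libraries, as did 7.43% of all genes tested. In *P. schneideri* most libraries were under 1 FPKM. Values were 0.427, 3.95 and 0.455 under BF, 0.428, 0.617 and 2.95 under GF, and 0.319, 0.536 and 0.562 under WF. BF replicate 2 and GF replicate 3 stood above the other 7 libraries, which overlapped across the films.

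The insoluble invertase was the most abundant of the 4 per length in every group. In *P. qamdoensis* its FPKM was 17.6, 11.9 and 27.5 under BF. Under GF it was 11.1, 9.62 and 11.8, and under WF 9.28, 17.0 and 8.87. BF lay above GF in every library, as in 10% of the genes tested in that species, from which nothing is read because these contrasts chose the gene. WF replicate 2 fell inside the range of BF. In *P. schneideri* the values were 5.86, 12.7 and 5.88 under BF, 8.84, 3.73 and 3.73 under GF, and 2.67, 2.16 and 2.90 under WF. All libraries under either colored film exceeded all 3 WF libraries in that species, and BF and GF overlapped. Of the genes tested there, 9.21% had BF above WF without overlap and 4.99% had GF above WF. The share with both is not given.

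Ordering the 6 groups by mean FPKM gave BF in *P. qamdoensis* first for every gene, and few neighbours in the order were separate. BF replicate 2 of that species was below replicates 1 and 3 for each gene. Film differences in *P. qamdoensis* chose the genes, so nothing is read from the first place of its BF group. For SUS2 the order ran from 4.20 ± 3.05 FPKM in that group through *P. schneideri* WF (1.64 ± 0.449), *P. qamdoensis* WF (1.52 ± 0.498), *P. schneideri* GF (1.52 ± 0.258) and *P. schneideri* BF (1.23 ± 0.405) to *P. qamdoensis* GF (0.893 ± 0.190), and each neighbouring pair overlapped. For SUS1 the first group, at 1.68 ± 1.31 FPKM, was followed by 5 groups with means from 0.137 to 0.347, all pairs overlapping. For SUS6 the *P. qamdoensis* groups came first, at 8.37 ± 6.56 under BF, 7.23 ± 2.25 under GF and 2.54 ± 1.41 under WF, before the *P. schneideri* groups at 1.61 ± 2.03, 1.33 ± 1.41 and 0.472 ± 0.133 in the same film order. Only GF and WF of *P. qamdoensis* did not overlap as neighbours there. For the insoluble invertase the *P. qamdoensis* groups, at 19.0 ± 7.92 under BF, 11.7 ± 4.59 under WF and 10.8 ± 1.10 under GF, again preceded those of *P. schneideri*, and only GF and WF of *P. schneideri* did not overlap as neighbours.

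As a description of the contrasts that chose the genes, log2 fold changes on the log2(FPKM + 1) scale in *P. qamdoensis* were positive for all 4 genes in BF against WF. They were 0.89 (SE 0.390) for SUS2, 0.85 (SE 0.359) for SUS1, 1.08 (SE 0.645) for SUS6 and 0.63 (SE 0.312) for the insoluble invertase. The 4 genes thus moved the same way in this comparison, but BF and WF libraries overlapped for each of them, whereas 9.28% of all genes tested had BF above WF without overlap. In GF against WF they diverged, with 1.25 for SUS6, −0.05 for the insoluble invertase, −0.13 for SUS1 and −0.40 for SUS2. In BF against GF they were 1.29 for SUS2, 0.98 for SUS1, 0.69 for the insoluble invertase and −0.17 for SUS6. The comparisons share libraries, so their values for one gene are not independent. The sizes rested on single BF libraries. Without BF replicate 2, BF against WF was 1.33 for SUS2, 1.32 for SUS1, 1.92 for SUS6 and 0.91 for the insoluble invertase. Without BF replicate 3 it was 0.45 for SUS2 and 0.34 for the insoluble invertase. Without BF replicate 1, the library that stood apart, it was 0.89 for SUS2, 0.54 for SUS6 and 0.65 for the insoluble invertase, and SUS1 no longer passed the filter. For SUS6, BF against GF changed sign between leaving out replicate 1 (−0.71) and replicate 2 (0.67).

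**Figure D2:**
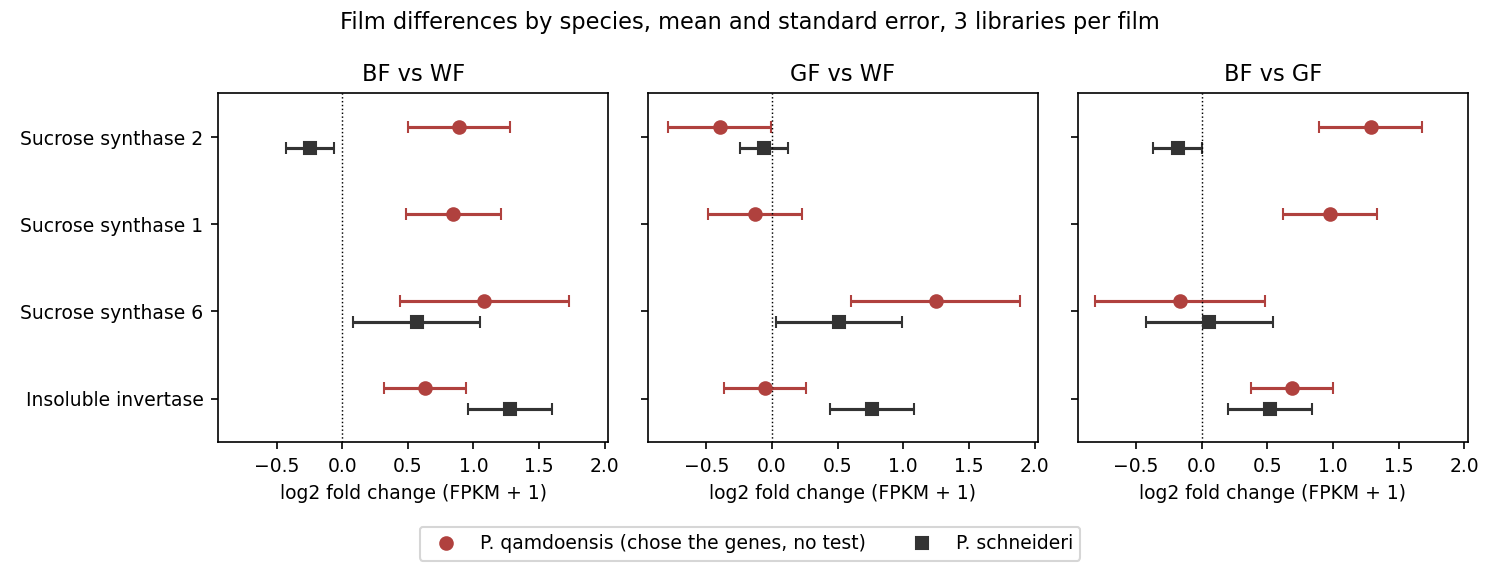
Log2 fold changes on the log2(FPKM + 1) scale (x axis) of the 4 genes (y axis) in the 3 film comparisons, as the first film minus the second. Points are limma estimates and bars their standard errors, with 3 libraries per film. *P. qamdoensis* values chose the genes and carry no test, and SUS1 has no point in *P. schneideri*, where it was not tested. For BF vs WF the insoluble invertase was at 1.28 in *P. schneideri* and SUS2 at −0.24.

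Whether the films moved the same genes in the second poplar was tested in *P. schneideri*, which the choice of genes did not use. Calls were made in limma over 23821 genes, where the fold change had to reach 1.5 and the p adjusted by Benjamini-Hochberg had to be below 0.01. In BF against WF 0 of the 3 members tested was called, beside 0.0252% of all genes (6 genes), and 1 of the 3 had an unadjusted p under 0.05, beside 15.6% of all genes. That gene was the insoluble invertase, with a log2 fold change of 1.28 (SE 0.322, 95% interval 0.57 to 1.99, limma adjusted p = 0.134) and a ratio of mean FPKM of 3.16. Its groups did not overlap, with BF higher, as in 9.21% of the genes tested. The direction held with each library left out (0.95 to 1.45). Over all alternatives to the fit its adjusted p ran from 0.0118 with library weights to 0.425 with WF replicate 2 left out.

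SUS2 had a log2 fold change of −0.24 in BF against WF in *P. schneideri* (95% interval −0.65 to 0.16, limma adjusted p = 0.557), which does not show that the films acted alike. SUS6 had 0.57 (−0.50 to 1.63, limma adjusted p = 0.606), and without BF replicate 2 it had −0.027. For SUS6 the ratio of mean FPKM, 3.41, therefore rested on one library. SUS1, fitted only when no filter was applied, had −0.16 (limma adjusted p = 0.574).

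In GF against WF 0 of the 3 members tested was called in *P. schneideri*, beside 0.042% of all genes (10 genes), and 1 of the 3 had an unadjusted p under 0.05, beside 12.1%. The insoluble invertase was at 0.76 on the log2 scale (95% interval 0.05 to 1.47, limma adjusted p = 0.383), with a ratio of mean FPKM of 2.11 and GF above WF in every library, as in 4.99% of genes. Without GF replicate 1, the highest of its film, the log2 fold change was 0.41. SUS6 was at 0.51 (−0.56 to 1.57, limma adjusted p = 0.710), and at 0.05 without GF replicate 3. SUS2 was at −0.06 (−0.47 to 0.35, limma adjusted p = 0.934), and quantile normalization gave 0.040.

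Between BF and GF in *P. schneideri*, limma called 0 of the 3 members and 0% of all genes, and 0 members had an unadjusted p under 0.05, beside 6.49% of all genes. Log2 fold changes were 0.52 for the insoluble invertase (95% interval −0.19 to 1.23), 0.06 for SUS6 (−1.01 to 1.12) and −0.18 for SUS2 (−0.59 to 0.22). Over all 3 films together, an exact permutation of the F statistic (280 divisions of the 9 libraries) has a smallest possible p of 0.00357. This permutation gave p = 0.075 for the insoluble invertase, p = 0.454 for SUS2, p = 0.507 for SUS1 and p = 0.618 for SUS6. Whether film differences differed between the species was not tested, since the *P. qamdoensis* contrasts chose the genes.

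The species difference, averaged over the films, gave the only calls among the members. Of all 24273 genes tested, limma called 11.1%, with 5.48% higher and 5.63% lower in *P. qamdoensis*, and of the 3 members tested it called 2, both higher. SUS6 averaged 6.05 FPKM over the 9 *P. qamdoensis* libraries and 1.14 over the 9 *P. schneideri* libraries, a log2 difference of 1.62 (SE 0.360, 95% interval 0.85 to 2.38, limma adjusted p = 0.00300). The insoluble invertase averaged 13.8 and 5.39 FPKM, a log2 difference of 1.29 (SE 0.200, 0.87 to 1.72, limma adjusted p = 0.000152). SUS2 averaged 2.20 and 1.46 FPKM, a log2 difference of 0.19 (−0.20 to 0.58, limma adjusted p = 0.471). Both calls held with each of the 18 libraries left out, where SUS6 ran from 1.44 to 1.90 and the insoluble invertase from 1.19 to 1.41. An exact two-sided permutation of the species within films (8000 assignments, smallest possible p 0.00025) gave p = 0.0005 for the insoluble invertase, p = 0.00225 for SUS6 and p = 0.480 for SUS2. For SUS1 the permutation and a fit without the filter were also run between species. Their results are not used, since its *P. qamdoensis* mean rested on the BF values that chose it. Genes on the study's list had to be detectable in *P. qamdoensis*. The species difference averages the same *P. qamdoensis* libraries whose film differences chose the genes, so these results are not independent of that choice. Of the 39 other genes of the list tested, limma called 12 higher and 1 lower in *P. qamdoensis*. Some of these genes passed the filter through *P. qamdoensis* alone, so nothing is read from this count. The species cannot be told apart from how well its reads map to the *P. yunnanensis* genes or from how the plants were grown.

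By film, the ratio of mean FPKM of *P. qamdoensis* to *P. schneideri* was 5.19 under BF, 5.43 under GF and 5.37 under WF for SUS6. The first 2 ratios rested on single *P. schneideri* libraries, and an added calculation, chosen after seeing the data, gave 19.0 under BF without BF replicate 2 and 13.8 under GF without GF replicate 3, against 4.62 to 5.93 under WF with any 1 library left out. The species did not overlap under GF or WF, with *P. qamdoensis* higher as in 16.6% and 15.4% of genes, and overlapped under BF. For the insoluble invertase the ratios were 2.33 under BF, 1.99 under GF and 4.55 under WF, with overlap only under BF. SUS2 went both ways, with a ratio of 3.40 under BF and 0.928 under WF, overlapping in both, while under GF *P. schneideri* was higher by 1.70 times in mean FPKM without overlap, as in 14.5% of genes. SUS1 overlapped between the species under every film, and its ratio under BF, 12.2, rested on BF replicates 1 and 3 of *P. qamdoensis*.

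Since FPKM is scaled to length, the 3 sucrose synthases can be set against each other within a library. SUS6 was the highest of the 3 in 7 of 9 *P. qamdoensis* libraries and SUS2 in the other 2, which were BF replicate 2 and WF replicate 1. In *P. schneideri* the order was turned, with SUS2 the highest in 7 of 9 libraries and SUS6 in BF replicate 2 and GF replicate 3. In those 7 libraries SUS6 was at 0.319 to 0.617 FPKM, near the filter of 0.5 FPKM. SUS1 was the highest in none of the 18. The share of SUS6 in the summed sucrose synthase FPKM of *P. qamdoensis* was 90.3%, 76.5% and 89.2% under GF (85.3% ± 7.67), 68.7%, 41.1% and 50.9% under BF (53.6% ± 14.0), and 41.2%, 68.8% and 56.5% under WF (55.5% ± 13.8). The GF libraries were above all those under BF and WF, which overlapped each other. In *P. schneideri* the share was 41.8% ± 21.5 under BF, 37.3% under GF (17.4%, 29.1% and 65.3%) and 20.1% ± 5.76 under WF. BF replicate 2 and GF replicate 3 were at 66.6% and 65.3% and the other 7 from 15.3% to 31.0%.

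The summed FPKM of the 3 sucrose synthases in *P. qamdoensis* was 20.5, 2.98 and 19.2 under BF, 9.63, 6.06 and 9.38 under GF, and 3.92, 6.05 and 3.25 under WF. BF replicate 2 thus had the lowest sum of its species and the other BF libraries the highest. In *P. schneideri* the sums ran from 1.38 to 5.94 and overlapped those of *P. qamdoensis*, with lower means of 2.98 under BF, 3.03 under GF and 2.37 under WF, against 14.2, 8.36 and 4.40.

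**Figure D3:**
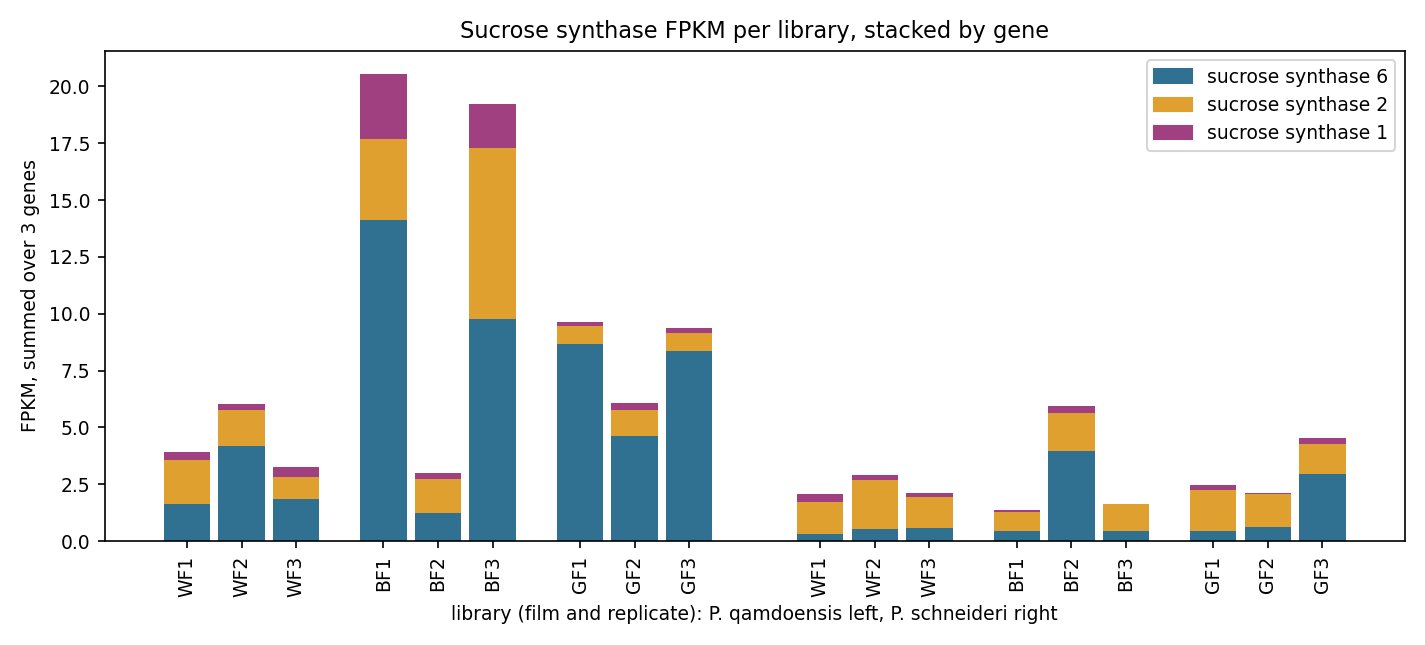
Summed FPKM of the 3 sucrose synthases (y axis, starting at 0) in each of the 18 libraries (x axis, film and replicate), stacked by gene. SUS6 takes most of the sum in the GF libraries of *P. qamdoensis*, and the sums of *P. schneideri* do not exceed 5.94.

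The study's list holds 3 other genes linked to sucrose: a vacuolar invertase, a trehalose-phosphate phosphatase and a sucrose-phosphate synthase. The vacuolar acid invertase (Pyun15G012150), which cleaves stored sucrose, had in *P. schneideri* 1.86, 1.70 and 2.497 FPKM under BF, 1.76, 2.77 and 2.91 under GF, and 2.96, 3.88 and 3.37 under WF. WF was above both colored films in every library, as in 17.2% of genes against BF and 13.3% against GF, whereas the insoluble invertase was lowest under WF. The vacuolar enzyme had log2 fold changes of −0.55 in BF against WF (95% interval −0.94 to −0.16, limma adjusted p = 0.197) and −0.35 in GF against WF (limma adjusted p = 0.469). In *P. qamdoensis* the vacuolar enzyme was lowest under GF, at 1.35, 1.57 and 1.06 FPKM, against 3.33, 2.57 and 1.98 under BF and 2.85, 2.19 and 2.83 under WF.

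Trehalose-phosphate phosphatase A (Pyun15G012130) removes the phosphate from trehalose 6-phosphate, a signal of sucrose status in plants. In *P. qamdoensis* it was at 2.92, 0.208 and 2.90 FPKM under BF, 0.410, 0.144 and 0.625 under GF, and 0.311, 0.961 and 0.424 under WF. BF replicate 2 was low and BF replicates 1 and 3 were high, as for the sucrose synthases. In *P. schneideri* it was under the filter, with 0.379, 0.665 and 0.338 under BF above all 6 other libraries (0.107 to 0.317). Of the genes tested there, which leave out this gene, 9.21% had BF above WF without overlap. The share with BF above both other films is not given. A probable sucrose-phosphate synthase 3 (Pyun17G006180), of the family that makes sucrose, was under the filter in both species, and in *P. qamdoensis* ran from 0.0413 to 0.103 FPKM under BF, 0.261 to 0.485 under GF and 0.332 to 0.401 under WF.

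Of the 42 other genes of the starch and sucrose section, 31 were tested in *P. schneideri* and limma called 0 in each comparison. Of all genes it called 0.0252% in BF against WF, 0.042% in GF against WF and 0% in BF against GF. In BF against WF 19 were higher and 12 lower, and the median on the log2 scale was 0.12, beside −0.04 over all genes tested. Of the 31 genes 12 had an unadjusted p under 0.05, 5 higher and 7 lower, beside 15.6% of all genes (1267 higher and 2454 lower). In GF against WF 12 were higher and 19 lower (median −0.14, all genes −0.07). At an unadjusted p under 0.05 were 5, all lower, beside 12.1% of all genes (741 higher and 2133 lower). In BF against GF 22 were higher and 9 lower (median 0.21, all genes 0.02). At an unadjusted p under 0.05 were 4, all higher, beside 6.49% of all genes (1013 higher and 532 lower). The 5 starch enzymes had medians of −0.93, −0.66 and −0.04 in these comparisons. The medians of the 3 tested members, 0.57, 0.51 and 0.06, were the values of SUS6, which were −0.027 in BF against WF without BF replicate 2 and 0.05 in GF against WF without GF replicate 3. The list was chosen by the study on *P. qamdoensis*. In the species difference limma called 12 of its 39 tested genes higher and 1 lower in *P. qamdoensis*, beside 5.48% and 5.63% of all genes. The median was 0.70, beside −0.04 over all genes. Some of the genes called higher passed the filter through *P. qamdoensis* alone, with *P. schneideri* means as low as 0 and 0.00293 FPKM. The choice of the list and the filter both favour genes present in *P. qamdoensis*. Nothing is therefore read from these counts or from this median.

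**Figure D4:**
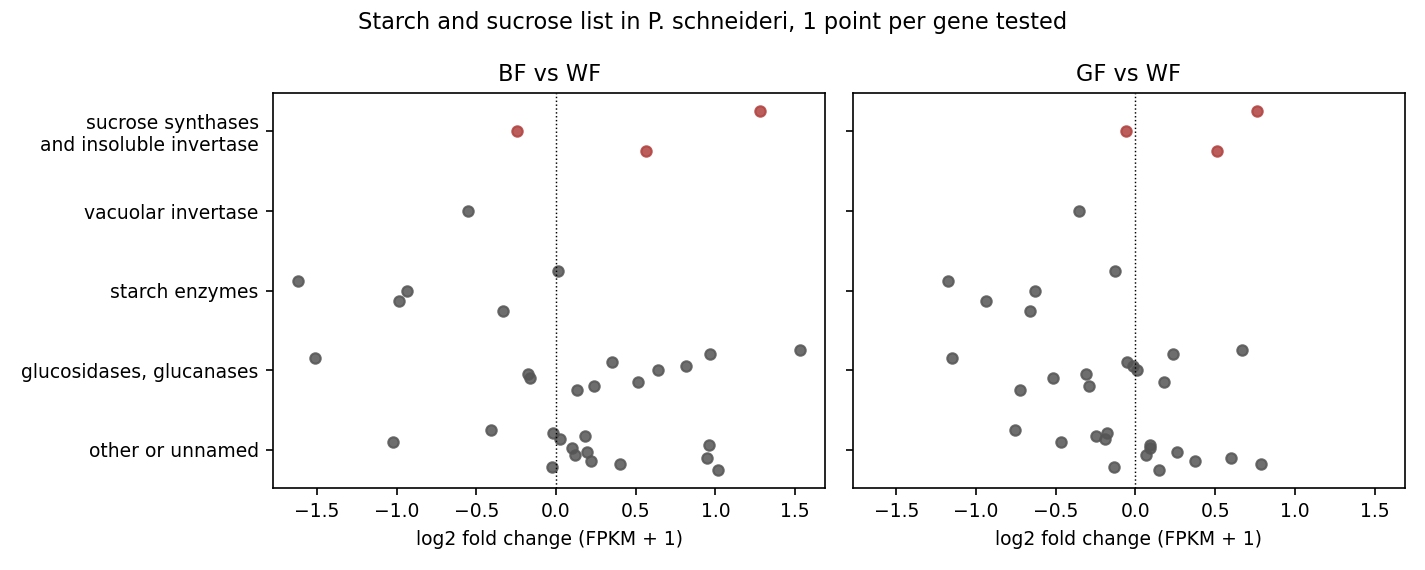
Log2 fold changes on the log2(FPKM + 1) scale (x axis) in *P. schneideri* for each gene tested of the starch and sucrose section, by class (y axis), in BF vs WF and GF vs WF. The insoluble invertase is at 1.28 and 0.76, the vacuolar invertase at −0.55 and −0.35, and no point is a called gene.

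The genes whose pattern was most like that of each member were sought by Pearson's r of log2(FPKM + 1) over the 18 libraries after subtraction of each species' mean, among the 22915 genes that passed the filter in both species (22916 for SUS1). They have no name in the starch, sucrose and leaf gene lists used here, which cover few genes. Pyun02G010080 came first for SUS6 (r = 0.932, and 0.928 in *P. qamdoensis* and 0.941 in *P. schneideri* alone) and Pyun16G000300 for the insoluble invertase (r = 0.914, and 0.864 and 0.939 alone). Pyun06G018730 came first for SUS2 (r = 0.943), but its r was 0.979 in *P. qamdoensis* and 0.505 in *P. schneideri*. Pyun01G025760 came first for SUS1, which exceeded 0.5 FPKM only in *P. qamdoensis* BF replicates 1 and 3. The r of Pyun01G025760 was 0.960, and 0.972 in *P. qamdoensis* and 0.766 in *P. schneideri* alone. Without *P. qamdoensis* BF replicate 1 this r was 0.917. These values are the highest of very many, the points share libraries and films, and no p is given for them.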

How the data were processed

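The authors filtered reads of leaf mRNA libraries, mapped those of both species against the *P. yunnanensis* genome and deposited an FPKM value for each gene in each library. The submitters' processing notes name HISAT2 and StringTie, without versions; further scaling and how fragments were assigned to near-identical genes are not stated in those sources. Low FPKM values fell on no common step, so depth per value is unknown. Columns were matched to samples by label, and 0 pairs of libraries were identical. Log2(FPKM + 1) was fitted for genes averaging 0.5 FPKM or more in limma 3.58.1 (R 4.3.3) with 1 mean per film, per species or over all 18 libraries, eBayes with trend and Benjamini-Hochberg adjustment over all genes; differences are the first group minus the second. Calls needed a fold change of at least 1.5 and an adjusted p below 0.01, the thresholds of the study's methods, which do not name a test. Exact tests, likeness and plots used scipy 1.17.1, pandas 2.3.3, numpy 2.4.6 and matplotlib 3.10.9 (Python 3.11.15). The members, gene lists and thresholds were chosen with earlier results of these data known. Named genes are the 4 members, 3 further genes linked to sucrose, genes adjacent in identifier order and, for each member, the genes of highest r. The 3 of highest r were sought, of which 1 is named here since none is annotated. Alternatives were a pseudocount of 0.1, no filter or a filter of 5 FPKM, a replicate block, weighted libraries, quantile and median-ratio scaling, a fit without the eBayes trend, an adjusted p below 0.05, only the 6 libraries compared, and each library left out. The fit was tested on simulated data.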

Additional observations from a re-analysis of the deposited data

How the results depend on the processing

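In *P. schneideri* 0 members were called between films under every alternative run, and no alternative other than the filter of 5 FPKM, which leaves the insoluble invertase as the only member tested (1 called), changed the 2 members called in the species difference. Signs changed for SUS2 and SUS6: SUS2 in GF against WF was 0.040 with quantile normalization and ran from −0.14 to 0.077 with each library left out; SUS6 in BF against GF was −0.10 with library weights and ran from −0.54 to 0.52; SUS6 in BF against WF, at 0.57 with all libraries, was −0.027 without BF replicate 2 and ran up to 0.87. In *P. qamdoensis* the insoluble invertase in GF against WF ran from −0.21 to 0.23 and SUS6 in BF against GF from −0.71 to 0.67 with each library left out. With a pseudocount of 0.1 SUS1 in BF against WF was 1.54, and in BF against GF SUS2 was 1.86 and SUS1 1.99. The cause of these moves was not tested. The count of all genes called moved more. In BF against WF of *P. schneideri* (6 called) it was 304 with library weights, 38 at an adjusted p below 0.05, 114 with only the 6 libraries compared, and 1 to 48 with a library left out. In GF against WF (10 called) it was 2 with no filter, 6 with the filter of 5 FPKM, 6 with median-ratio scaling, 98 with weights, 81 at an adjusted p below 0.05 and 1 to 13 with a library left out. In BF against GF (0 called) it was 1 with no filter, 14 with weights, 12 at an adjusted p below 0.05 and 0 to 1 with a library left out. The species count (2696) was 1216 with the filter of 5 FPKM and 2443 to 3104 with a library left out. For libraries with the same replicate number, r of deviations from the film mean was −0.483 to 0.230 in *P. qamdoensis* and −0.280 to 0.103 in *P. schneideri*. For other numbers it was −0.374 to 0.512 and −0.240 to 0.365. This shows no sign of pairing by number, but with 3 libraries per film it cannot exclude it. With the replicate block the insoluble invertase in BF against WF of *P. schneideri* had a limma adjusted p of 0.207. In the species difference with that block, limma adjusted p was 0.00595 for SUS6 and 0.000509 for the insoluble invertase. Depth per value is unknown, which limits SUS1 most.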

Other observations

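Among the gene rows next to the members in identifier order, Pyun06G019200 follows the insoluble invertase and has no name in the gene lists used here. In *P. qamdoensis* it was at 6.64 ± 1.03 FPKM under WF, 1.14 ± 0.140 under GF and 0.319 ± 0.227 under BF (mean ± SD, n = 3). The films did not overlap, but the share of all genes with this pattern is not given, so nothing is read from it. In *P. schneideri* it was at no more than 0.0838 FPKM in any of the 9 libraries. Pyun06G019180, which precedes the insoluble invertase, had group means from 68.1 to 86.8 FPKM in both species. Pyun06G012710, which follows SUS2, had group means from 4.89 to 10.1 FPKM, lowest under BF in both species. The rows before and after SUS6 had group means from 3.12 to 5.15 FPKM in both species, a narrower range than that of SUS6 itself, and Pyun06G012690 and Pyun18G005630, next to SUS2 and SUS1, are listed at 0 in all 18 libraries.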
